A study of Mus musculus with 2 samples.

Results

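The genes described here are 10 imprinted growth genes of the mouse: Igf2, H19, Plagl1, Grb10, Cdkn1c, Mest, Peg3, Ndn, Dlk1 and Meg3. They were taken by gene name from the non-control spots of a 2-colour expression array, where they have 20 of 39429 probes and 29 spots, and all 10 are among the 20989 features that could be tested. The array compared dissected ureters of NMRI embryos at E18.5, shortly before birth. The Rbpj-cKO embryos carried a cre allele of Tbx18, a gene of the mesenchyme around the ureteric bud, together with floxed copies of Rbpj on both chromosomes (Tbx18(cre/+);Rbpj(fl/fl)). RBPJ, the product of Rbpj, sits on DNA and passes the signal of activated Notch receptors to transcription. The control embryos were Rbpj(fl/?): they carried at least 1 floxed Rbpj copy, the other copy is not given in the labels, and no cre is listed for them. Genotype of Rbpj and presence of the cre allele therefore differ together. A first array held male Rbpj-cKO RNA in red and male control RNA in green, and a second array held female Rbpj-cKO RNA in green and female control RNA in red. Each group thus has 1 sample of each sex, and sex, dye direction and array cannot be told apart. The labels do not give the number of embryos behind an RNA sample.

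An imprinted gene is transcribed mainly from the copy inherited from a given parent, under the control of methylated DNA set in the germ line. Many such genes act on fetal growth, and their transcripts are abundant in fetal mesenchyme and decline after birth. Paternally expressed members often promote growth, as the growth factor gene Igf2 does, and maternally expressed members often restrain it, as Cdkn1c and Grb10 do. The array measures total RNA of a gene and does not separate the parental copies.

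The array signals were of usable strength for all 10 genes. Median signal was 6.47 to 6.75 times background in red and 11.3 to 13.5 times in green, and 66.8 to 71.1% of spots were well above background. All 20 probes of the 10 genes were well above background in all 4 channels, and none was saturated or marked as an outlier. Rbpj itself had a log2 ratio of Rbpj-cKO over control of -1.58 in males and -0.93 in females, a mean of -1.25 ± 0.46 (SD, n = 2 arrays), with an adjusted p of 0.0760 in limma. Its transcript was therefore 2.39-fold lower on average in whole ureters, without passing the threshold of 0.05. The ureter's own markers were present: all 8 smooth muscle and mesenchyme genes and all 10 urothelial genes listed were measured. The smooth muscle and mesenchyme markers had a summed linear signal of 669528 and 627382 in the Rbpj-cKO samples (male, female), against 834257 and 709531 in the controls. The urothelial markers summed to 1084239 and 1038353 in the Rbpj-cKO samples, against 875827 and 876540 in the controls. None of these 18 markers passed the test.

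None of the 10 imprinted growth genes passed the test between Rbpj-cKO and control ureters (limma, Benjamini-Hochberg adjusted over all features, lowest adjusted p among them 1.00). Over all features 27 passed, or 0.129%, with 9 (0.0429%) higher and 18 (0.0858%) lower in Rbpj-cKO. At an unadjusted p under 0.05 the members counted 1, Plagl1, which was lower, against 708 of all features (3.37%) in either direction and 1.9% lower. With the sign of the ratio alone, 6 of the 10 genes were lower in Rbpj-cKO on both arrays, none was higher on both, and 4 had opposite signs. Among all features 41.4% had the same sign on both arrays, 19.7% lower and 21.7% higher. The members' count of 6 depended on the processing. It was 2 under median centring instead of loess (12.1% of all features). It was 4 with Agilent's processed signals (19.8% of all features), the value table of the series (19.7%) and centring by place on the array (20.7%). Where all probes of a gene were averaged it was 8 (20.9%). Under centring by place 1 member, H19, was higher on both arrays. The median of the members' mean log2 ratios was -0.15, with -0.12 in males and -0.16 in females, and the median over all features was 0.01. None of the 10 reached a 1.5-fold change in the same direction on both arrays, a limit that 0.638% of all features passed. Since the samples are whole ureters, fewer cells of a type and less RNA per cell cannot be told apart in any of these values.

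**Figure D1:**
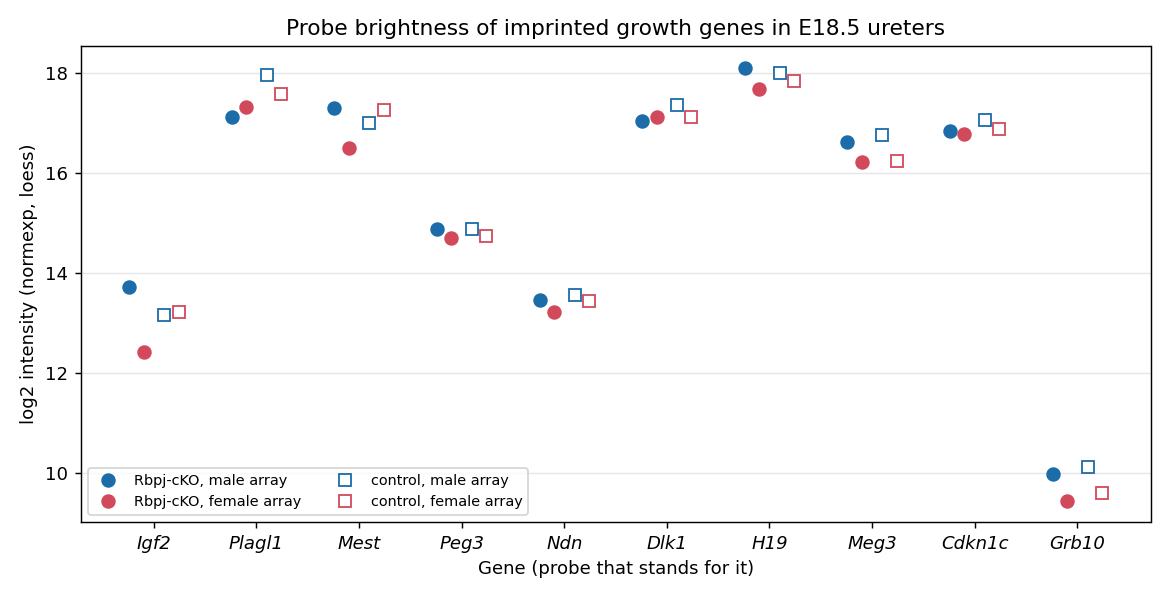
Normalised log2 intensity of the probe that stands for each gene, with Rbpj-cKO samples as filled circles left of control samples as open squares, male in blue and female in red. Plagl1 is lower in both Rbpj-cKO samples than in both controls, and Igf2 and Mest are lowest in the female Rbpj-cKO sample. Intensity depends on the probe as well as on the transcript, so heights are to be read within a gene. Intensities were not scaled between the arrays, so overlap of the groups also depends on the brightness of each array.

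Igf2 encodes insulin-like growth factor 2, a fetal growth factor that acts through the IGF1 receptor and the insulin receptor. Its only probe lies at chr7:149839661-149839720 (mm9, minus strand), base 990 of its transcript. The probe and a promoter window described further on are shown because the gene gave the most divergent ratios of the 10. The first 30 bases of the probe are
Igf2 probe, base 990: atcaaattatgtggtaattctgcaatgtag
The log2 intensity of this probe was 13.71 in the male and 12.42 in the female Rbpj-cKO sample, against 13.17 in the male and 13.21 in the female control. The female Rbpj-cKO sample was the lowest of the 4 and the male Rbpj-cKO sample the highest, so the control values lie between those of the mutants. The log2 ratio was 0.54 in males and -0.79 in females, with a mean of -0.12 ± 0.94 (SD, n = 2 arrays) and a 95% interval of -0.73 to 0.48. On both arrays the red channel was the brighter for Igf2, with a mean red over green log2 ratio of 0.67, and only 1.58% of all features had a larger red-green part in either direction. Dye and sex are swapped together in this design, so this value is equally the male minus female difference of the genotype ratios, divided by 2.

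H19 is a maternally expressed long noncoding RNA whose gene lies 78 kb from Igf2 on these probes' positions and shares enhancers with it. Its bright probe (chr7:149761492-149761551, mm9, minus strand) and its dim probe (chr7:149762417-149762476) are shown whole, because they differ in base composition as well as in signal. They have 45.0 and 55.0% G and C, where the median of all probes is 41.7%.
H19 probe, base 2500: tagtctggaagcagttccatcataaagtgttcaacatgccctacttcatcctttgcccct
H19 probe, base 1575: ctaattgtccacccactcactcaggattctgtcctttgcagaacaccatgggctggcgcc
The probe at base 2500 had a log2 intensity of 18.11 and 17.68 in the male and female Rbpj-cKO samples, against 17.99 and 17.85 in the male and female controls. It ranked 6 and 67 among the 39429 probes in the Rbpj-cKO channels and 15 and 41 in the control channels, so the signal was among the brightest on the array in either genotype. Its log2 ratio was 0.11 in males and -0.16 in females, with a mean of -0.02 ± 0.20 (SD, n = 2 arrays, 95% interval -0.46 to 0.41). The groups overlap. The probe at base 1575 had 8.01 and 7.32 in the Rbpj-cKO samples, against 8.06 and 7.45 in the controls, with ratios of -0.05 and -0.14. The signs of H19 turned with the processing: its ratios were -0.09 in males and 0.14 in females with Agilent's processed signals and 0.05 and 0.02 with ratios centred by place on the array, so its direction on either array is not settled.

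Plagl1, also known as Zac1, encodes a paternally expressed zinc finger transcription factor that restrains proliferation and binds regulatory DNA of other imprinted genes, the Igf2 and H19 region among them. It had the lowest mean ratio of the 10 genes. Of its 4 probes on chromosome 10 (mm9, plus strand), the bright pair lies at chr10:12850832-12850891 and chr10:12851280-12851339. The first 30 bases of each are shown because the probes share a stretch of 26 bases although they lie apart. Capitals mark the 18 shared bases that fall within the printed part of both probes, and the shared stretch runs on past them. Whether either probe binds the other's target was not tested.
Plagl1 probe, base 4591: ATCTCCTAACCTTTGATGactctgtacttt
Plagl1 probe, base 5039: tgcccagtatatATCTCCTAACCTTTGATG
The probe at base 4591 stands for the gene. Its log2 intensity was 17.12 and 17.32 in the male and female Rbpj-cKO samples, against 17.95 and 17.58 in the male and female controls. Both Rbpj-cKO values lie below both control values. In rank among all probes it stood at 665 and 325 in the Rbpj-cKO channels and at 18 and 153 in the control channels. The log2 ratio was -0.83 in males and -0.27 in females, a mean of -0.55 ± 0.40 (SD, n = 2 arrays, 95% interval -1.01 to -0.08), or 1.46-fold lower in Rbpj-cKO. With an unadjusted limma p of 0.0243 it ranked 409 of 20989 features, and the adjusted p was 1.00. The other bright probe gave -0.79 and -0.29, with a mean of -0.54. The dim probes gave -0.48 and -0.10 at base 2610 and -0.31 and 0.09 at base 2180, so 3 of the 4 probes were lower in Rbpj-cKO on both arrays. The dim probes' log2 intensities in the Rbpj-cKO samples were 9.33 and 9.23 at base 2610 and 8.89 and 8.69 at base 2180. In the controls they were 9.80 and 9.33 at base 2610 and 9.20 and 8.60 at base 2180. The mean over all 4 probes was -0.37, with an unadjusted limma p of 0.0872. Of the 8 smooth muscle and mesenchyme markers, 6 were lower on both arrays, Smtn was higher on both and Tbx18 had opposite signs (-0.11 and 0.47). The markers had a median log2 ratio of -0.43 in males and -0.15 in females. Their part in the Plagl1 values was not tested.

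**Figure D2:**
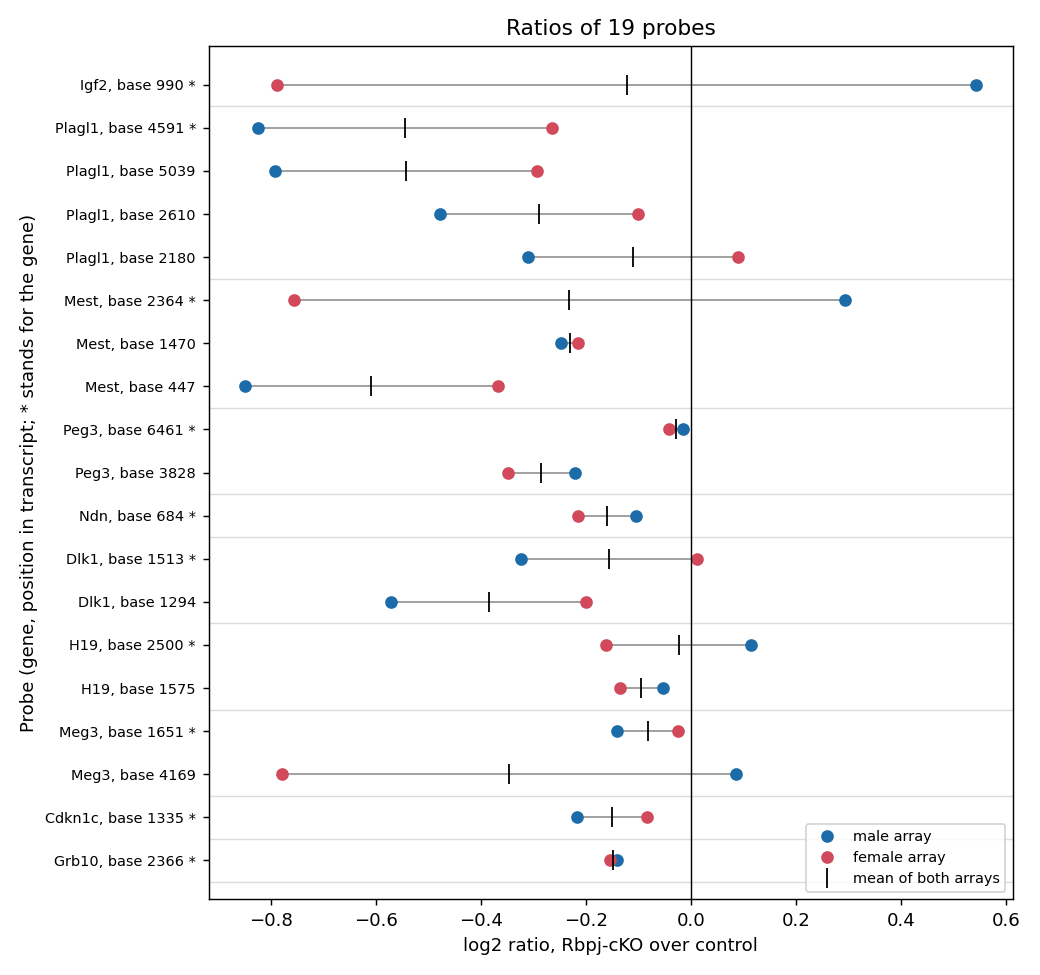
Log2 ratio of Rbpj-cKO over control for 19 of the 20 probes, with the male array in blue, the female array in red and a black tick at their mean. The means run from -0.61 for Mest at base 447 to -0.02 for H19 at base 2500, and probes of the same gene are not separate measurements of a trend. Igf2 at base 990 and Mest at base 2364 span 0 widely, and the bright Plagl1 pair is lower on both arrays.

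Grb10 encodes an adaptor protein that binds the insulin and IGF1 receptors and damps their signal, and it is expressed from the maternal copy in most fetal tissues. Its probe (chr11:11833165-11833224, mm9, minus strand) had a log2 intensity of 9.98 and 9.44 in the Rbpj-cKO samples, against 10.12 and 9.60 in the controls. The ratio was -0.14 in males and -0.16 in females, with a mean of -0.15 ± 0.0097 (SD, n = 2 arrays, 95% interval -0.57 to 0.27), the smallest spread between arrays among the 10 genes. The interval is wider than this spread because limma takes most of its error from all features together. Cdkn1c encodes p57Kip2, a cyclin-dependent kinase inhibitor that limits growth of many fetal tissues. Its probe (chr7:150644753-150644812, mm9, minus strand), 805 kb from that of Igf2, read 16.84 and 16.79 in the Rbpj-cKO samples, against 17.06 and 16.87 in the controls. Both Rbpj-cKO values lie below both controls, which held for 2 of the 10 genes, Cdkn1c and Plagl1, and for 8.49% of all features. This measure also compares intensities across the arrays, which were not scaled to each other. Grb10, for example, was lower on both arrays and still overlaps by it. The ratios of Cdkn1c were -0.22 and -0.08 with a mean of -0.15 ± 0.094 (SD, n = 2 arrays, limma unadjusted p 0.451).

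Mest encodes a protein of the alpha/beta hydrolase fold family and is a paternally expressed gene that is active in mesodermal tissue of the fetus. It has 3 probes on chromosome 6 (mm9, plus strand), at chr6:30698279-30698338, chr6:30697385-30697444 and chr6:30692160-30692219. Their first 30 bases are shown because the probes disagree.
Mest probe, base 2364: tctgaaagacctaagagcaaatggtgctga
Mest probe, base 1470: cctctcatttctgtgacatctgaccaaata
Mest probe, base 447: aagccctgagatagttgtgcttttacatgg
The probe at base 2364 is the brightest and stands for the gene. It read 17.29 and 16.51 in the male and female Rbpj-cKO samples, against 17.00 and 17.26 in the male and female controls. The female Rbpj-cKO sample was lowest and the male Rbpj-cKO sample highest, the same order as for Igf2. Its ratio was 0.29 in males and -0.76 in females, with a mean of -0.23 ± 0.74 (SD, n = 2 arrays, 95% interval -0.78 to 0.31, limma unadjusted p 0.368). The red channel was the brighter on both arrays, by a mean log2 ratio of 0.52, and 3.73% of all features had a larger red-green part. The probe at base 1470 read 16.72 and 16.50 in the Rbpj-cKO samples, against 16.97 and 16.72 in the controls, with ratios of -0.25 and -0.22. The probe at base 447 read 13.50 and 13.02 in the Rbpj-cKO samples, against 14.35 and 13.39 in the controls, with ratios of -0.85 and -0.37. In a limma fit of all 26224 probes on their own, where 0.16% passed, the probe at base 447 had a mean of -0.61, an unadjusted p of 0.0102 and an adjusted p of 0.823. With the mean of its 3 probes in place of the brightest, Mest was lower in Rbpj-cKO on both arrays, at -0.27 and -0.45 (mean -0.36, limma unadjusted p 0.0769, adjusted p 1.00). The choice of probe thus set the sign of Mest on the male array.

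The Mest probe at base 2364 was printed as 10 spots, the only one of the 20 probes printed more than once. On the male array the ratios of its spots ran from 0.27 to 0.32, with an SD of 0.013. On the female array they ran from -0.95 to -0.58, with an SD of 0.18, and they fell into separate sets by place. The 5 spots in the upper part of the array averaged -0.58 and the 5 in the lower part -0.93. Both sets had the same sign. Among all 399 probes printed as 10 spots on the female array, the lower minus upper difference of -0.35 for Mest was the lowest, where the median was 0.23. The 14 of these probes with a mean log2 intensity of at least 16, Mest among them, had a median difference of -0.02, and the other 385 had 0.24. Over all spots of the female array, the lower part was shifted against the upper part in each of 5 brightness classes, with medians of 0.08 to 0.16 in the lower and -0.14 to -0.05 in the upper part. Spots with a log2 intensity of at least 16, the range of this Mest probe, had medians of -0.05 in the lower and -0.01 in the upper part. Medians on the male array stayed between -0.05 and 0.04 in these classes. The other 19 probes have 1 spot each, so no such spread can be given for them. With ratios recentred by place on the array, an alternative chosen after seeing the data, Plagl1 read -0.79 in males and -0.41 in females, and Mest read 0.28 and -0.76.

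**Figure D3:**
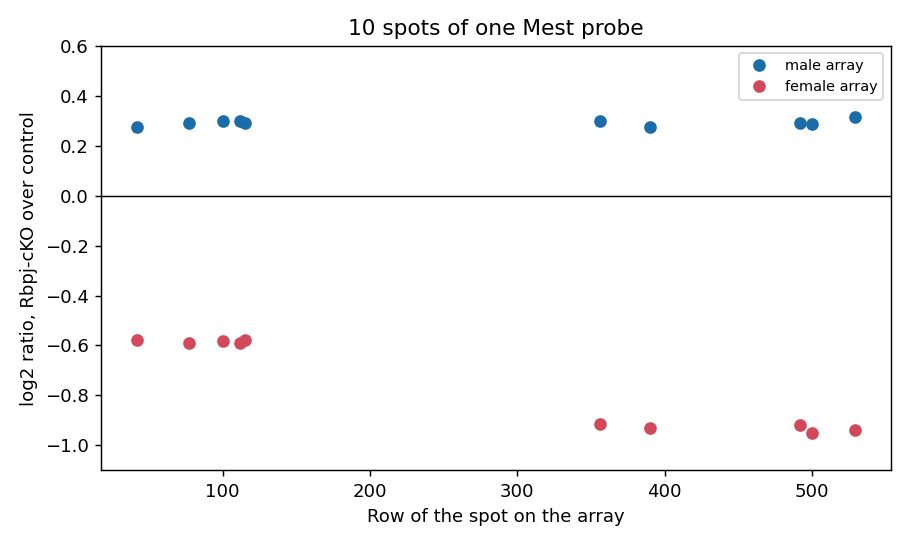
Log2 ratio of Rbpj-cKO over control at each of the 10 spots of the Mest probe at base 2364, plotted against the row of the spot on the array. The male spots lie between 0.27 and 0.32 throughout, and the female spots lie near -0.58 in the upper rows and near -0.93 in the lower rows.

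Peg3 encodes a paternally expressed zinc finger protein that takes part in fetal growth and cell survival. Its bright probe (chr7:6658774-6658833, mm9, minus strand) read 14.87 and 14.70 in the Rbpj-cKO samples, against 14.88 and 14.74 in the controls. The groups overlap, and the ratios were -0.02 and -0.04, with a mean of -0.03 ± 0.018 (SD, n = 2 arrays, 95% interval -0.45 to 0.39). Its dim probe read 8.76 and 8.12 in the Rbpj-cKO samples, against 8.98 and 8.47 in the controls, with a mean ratio of -0.29. Ndn encodes necdin, a paternally expressed MAGE family protein that restrains cell division in neurons and other cells. Its probe (chr7:69493847-69493906, mm9, plus strand) read 13.46 and 13.22 in the Rbpj-cKO samples, against 13.56 and 13.44 in the controls. The ratios were -0.10 and -0.21, with a mean of -0.16 ± 0.078 (SD, n = 2 arrays, 95% interval -0.58 to 0.26), and the female Rbpj-cKO sample was the lowest of the 4.

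Dlk1 encodes a paternally expressed transmembrane protein with EGF-like repeats akin to those of the Notch ligands, without the domain through which Delta and Jagged proteins bind Notch receptors. Its bright probe (chr12:110698721-110698781, mm9, plus strand) read 17.03 and 17.12 in the Rbpj-cKO samples, against 17.36 and 17.11 in the controls. The groups overlap, with the female samples within 0.01 of each other on the log2 scale. The ratio was -0.32 in males and 0.01 in females, with a mean of -0.16 ± 0.24 (SD, n = 2 arrays, 95% interval -0.59 to 0.28). The other Dlk1 probe (chr12:110698502-110698561) read 14.51 and 14.78 in the Rbpj-cKO samples, against 15.08 and 14.99 in the controls. Both Rbpj-cKO values lie below both controls there, which held for 8.49% of all features by the probe that stands for each. The ratios of this Dlk1 probe were -0.57 and -0.20, with a mean of -0.39 (limma unadjusted p 0.0783).

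Meg3 is a maternally expressed long noncoding RNA whose gene lies 111 kb from Dlk1 by these probe positions. The 2 probes described here are shown whole because they lie at different places of the gene. Their base numbers count along different reference transcripts, so they give no order of the probes along the RNA. They lie at chr12:110809678-110809737 and chr12:110799558-110799617 (mm9, plus strand).
Meg3 probe, base 1651: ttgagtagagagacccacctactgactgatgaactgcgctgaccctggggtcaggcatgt
Meg3 probe, base 4169: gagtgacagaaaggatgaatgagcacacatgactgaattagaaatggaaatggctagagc
The probe at base 1651 read 16.62 and 16.22 in the Rbpj-cKO samples, against 16.76 and 16.25 in the controls, with ratios of -0.14 and -0.02 and a mean of -0.08 ± 0.083 (SD, n = 2 arrays, 95% interval -0.51 to 0.34). The probe at base 4169 read 9.80 and 9.11 in the Rbpj-cKO samples, against 9.72 and 9.89 in the controls, with ratios of 0.08 and -0.78.

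By parental copy, the 4 maternally expressed genes (H19, Cdkn1c, Grb10, Meg3) had a median log2 ratio of -0.12 and the 6 paternally expressed genes (Igf2, Peg3, Mest, Plagl1, Ndn, Dlk1) -0.16. In each set 3 genes were lower in Rbpj-cKO on both arrays. The difference between the sets was not tested. A wide red-green part was seen for the probes that stand for Igf2 and Mest, which are among the 6 paternally expressed genes. It was not a trait of Mest as a gene, since its probes at bases 1470 and 447 had red over green means of -0.02 and -0.24. Nor was it confined to paternally expressed genes, since the Meg3 probe at base 4169 had a red over green mean of 0.43. The median distance between arrays over all 10 genes was 0.20 on the log2 scale, against 0.28 over all features.

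**Figure D4:**
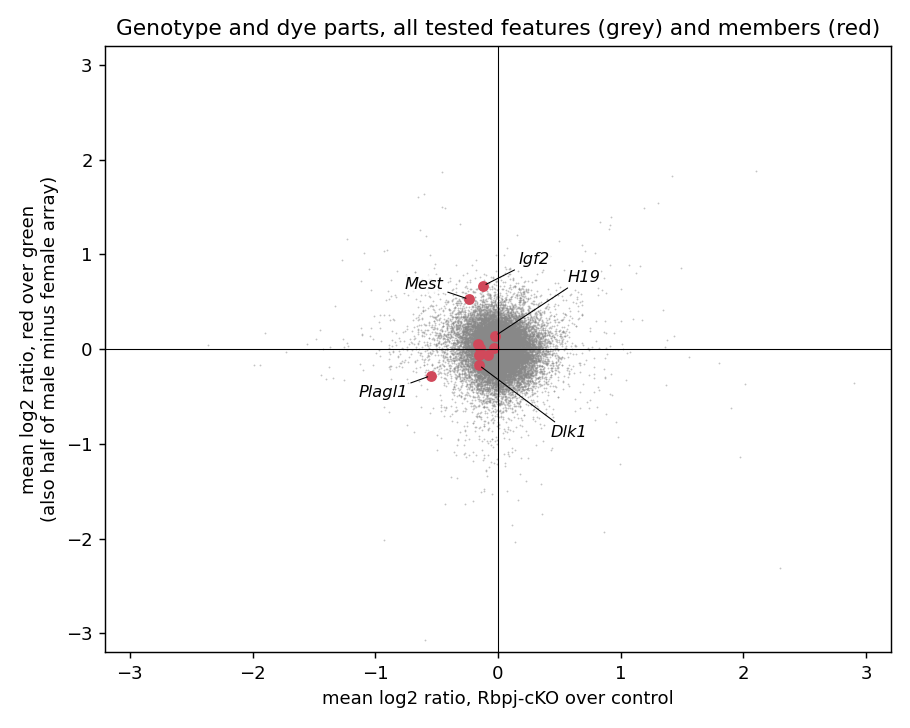
Mean log2 ratio of Rbpj-cKO over control (horizontal) against the mean log2 ratio of red over green (vertical), which is also the male minus female difference divided by 2, for all tested features in grey and the 10 genes in red. Igf2 at 0.67 and Mest at 0.52 stand high on the vertical axis, and Plagl1 at -0.55 stands left of the other members.

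The chromosomal neighbours of the members were next set beside them, taking features whose probes lie within 250 kb on mm9. None of the neighbours of any member passed the test. Plagl1 had 4 measured neighbours with mean ratios of -0.08 to 0.12, so none was near its value of -0.55. The 3 neighbours of Ndn, including the imprinted genes Magel2, Mkrn3 and Peg12, ran from -0.24 to 0.06. The 8 neighbours of Mest ran from -0.49 to 0.21. The nearest of them, Copg2, is transcribed toward Mest and has a probe 608 bases from the Mest probe at base 2364. Its ratios were -0.65 and 0.03, named here after its values were seen.

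Among 49 other imprinted genes listed, 47 are on the array, 43 were measured and none passed the test. Their median log2 ratio was -0.0009 (0.05 male, 0.03 female), with 12 higher on both arrays, 8 lower on both and 23 of opposite sign. The lowest were Slc22a2, an organic cation transporter gene, at -0.41 and -0.64 (mean -0.53), and Klf14, a zinc finger transcription factor gene, at -0.63 and -0.35 (mean -0.49). The highest were the zinc finger gene Zfp264 at 0.25 and 0.60 (mean 0.43) and Dcn, which encodes the matrix proteoglycan decorin, at 0.51 and 0.18 (mean 0.34). Dio3, Peg10, Rtl1 and Zdbf2 were not well above background in any channel.

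Genes that transmit or limit the IGF signal were all measured, 28 of 28, and none passed the test. Their median was 0.06, with 0.12 in males and -0.08 in females, and 6 genes were higher on both arrays, 6 lower on both and 16 opposite. The highest were Pappa2, which encodes a protease that cleaves IGF binding proteins, at 1.80 and 0.03 (mean 0.92), and Igfbp5, an IGF binding protein gene, at 0.43 and 0.61 (mean 0.52, limma unadjusted p 0.0211). The male array alone carried the Pappa2 value. The lowest were the adaptor gene Grb14 at -0.52 and -0.06 and Igfbp4 at -0.08 and -0.44. Of 14 genes that maintain or erase imprints, 13 were measured, with a median of -0.01. They ran from Tet2, a methylcytosine dioxygenase gene, at a mean of -0.19 to Uhrf1, a cofactor of maintenance methylation, at 0.22.

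The other cyclin-dependent kinase inhibitor genes, 6 of 6 measured, had a median of -0.11, with none higher on both arrays and 2 lower on both. Cdkn2b, which encodes p15, read -0.42 and -0.52 (mean -0.47 ± 0.073, SD, n = 2 arrays, limma unadjusted p 0.0335, adjusted p 1.00), and Cdkn1a, which encodes p21, read -0.05 and 0.17. Among 5 relatives and partners of the members, Plag1, a zinc finger gene related to Plagl1, read -0.28 and -0.47, and the adaptor gene Grb7, related to Grb10, read 0.39 and 0.30. Dlk2, the relative of Dlk1, read 0.36 and 0.09. None of these passed the test.

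The transcription factor RBPJ is known to bind the letters GTGGGAA, and RefSeq promoters (GRCm38.p6, 250 bases before to 50 after a start) were searched for them on both strands. Promoters were matched for 8 of the 10 genes, 15 promoters in all, and those of H19 and Cdkn1c were not matched. The letters occur in 1 of the 15, an Igf2 promoter at chr7:142666767-142667066 on the minus strand, and in 6.4% of all 32851 promoters (2097). The match starts at -48 from the start site and is shown in capitals.
Igf2 promoter window: gtgtgaatgggGTGGGAAgcagctagagag
This describes the letters in these windows only and says nothing on binding.

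Markers of other tissues that a dissected ureter could carry were measured beside the members. The smooth muscle and mesenchyme markers had a median of -0.28, with Des, the intermediate filament gene of muscle, at -0.63 and -0.64 and Tbx18 at -0.11 and 0.47. The urothelial markers had a median of 0.26, with 9 of 10 higher on both arrays and Krt5, a basal keratin gene, at 0.56 and 0.53. Of the skeletal muscle markers 7 of 10 were measured and 1 fell, the creatine kinase gene Ckm, at -1.42 and -1.43 (limma adjusted p 0.0203). This call was lost in 7 of 13 other settings, with adjusted p-values of 0.00456 to 0.988 over all 13 in limma. The neuronal markers, 6 of 6 measured, had opposite medians of 0.29 in males and -0.73 in females, and Th, the tyrosine hydroxylase gene 239 kb from the Igf2 probe, read 0.61 and -1.79. The lowest mean was that of Nefm, a neurofilament gene, at -0.05 and -1.20, and the highest that of Prph, the peripherin gene, at 0.49 and 0.23. The neuronal list therefore had the same pair of signs as Igf2 and the Mest probe at base 2364. The other Mest probes were lower on both arrays. The summed signal of the neuronal list was 9590 and 12190 in the Rbpj-cKO samples, against 9834 and 27927 in the controls. Mesothelial markers, 5 of 5 measured, had medians of 0.50 and -0.21. Their summed signal was 52502 and 41639 in the Rbpj-cKO samples, against 39744 and 39715 in the controls. The part of any of these tissues in the values of the imprinted genes was not tested.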

How the data were processed

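Total RNA of dissected ureters was amplified into aminoallyl cRNA and coupled to AlexaFluor647 (red) or AlexaFluor555 (green), per the labels' protocols, and 2 arrays were hybridised with dyes swapped. The deposited scanner files hold intensity values without normalization (mean signal, median background) and processed intensity values, corrected for background, place and dye, from Agilent Feature Extraction 10.7.3.1, per the file headers. The deposited log10 values are red over green of the processed signals, per the file headers. The deposited value table of the series gives each probe a score of unstated scale. Compared with the scanner files, the score is a signed linear fold of processed signals, Rbpj-cKO over control, uncentred (column medians 1.0). It matched within 0.001 on the log2 scale for 99.8% and 99.9% of 25004 single-spot probes.

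Here, mean signals were background-corrected with limma's normexp (offset 50, all spots in the fit). Loess within arrays gave control spots a weight of 0, and intensities were not scaled between the arrays. Control spots and outlier spots (200 male, 274 female) were dropped, and repeat spots were averaged per probe. A probe entered the test if both Rbpj-cKO channels or both control channels were well above background, and the brightest probe represented a gene. Names came from RefSeq accessions for 26412 probes and from the files for 13017. The log2 ratio, turned to Rbpj-cKO over control, was tested against 0 by lmFit and eBayes, two-sided (limma 3.58.1 in R 4.3.3). P-values were adjusted by Benjamini-Hochberg over 20989 features, with a threshold of 0.05. The fit had 1 residual and 10.3 prior degrees of freedom, so p-values and 95% intervals rest on these 2 arrays and a spread pooled over features, which may be technical. The number of arrays limits the precision. The step was tested on simulated data. Both arrays share a slide and a scan.

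The members and gene lists were chosen with earlier results of these data known. A probe of Meg3 is not reported here. All members and their other probes are named, and from each other list up to 4 genes, those past the test and then among the 2 highest and 2 lowest means. Neighbours of the members were named after their values were seen. Brightness ranks are over all 39429 non-control probes. Positions are on mm9 as in the files, and the exon, intron or UTR under a probe was not analysed here. Alternatives changed the background correction, scaling, filter, probe rule, names, outlier spots and prior, left out each array, and, added after seeing the data, corrected for place on the array.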

Additional observations from a re-analysis of the deposited data

Results flagged for a closer look

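By the probe that stands for each gene, Igf2, Mest, H19 and Dlk1 had opposite signs on the male and the female array. So did 12303 of all 20989 features. The other Mest probes and the other Dlk1 probe were lower on both arrays, and the signs of H19 turned with the processing. The log2 ratio of Rbpj-cKO over control was 0.54 in males and -0.79 in females for Igf2, 0.29 and -0.76 for Mest, 0.11 and -0.16 for H19, and -0.32 and 0.0101 for Dlk1. The difference was not tested, because there is 1 array for each sex, and sex, dye direction and array cannot be told apart.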

How the results depend on the processing

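None of the 10 genes passed the test under any of the 11 planned settings with a fit or the 2 added after seeing the data, and the lowest adjusted p of a member was 1.00. Plagl1 was lower in Rbpj-cKO on both arrays in 11 of 11 planned settings, with a mean of -0.64 to -0.37 and an unadjusted limma p of 0.0206 to 0.101. These settings are not separate checks of its sign. Changes of the filter, names, outlier spots or prior, or taking each probe as a feature, left its ratios at -0.83 and -0.27. The processed signals and the series value table gave the same ratios as each other. Under median centring Plagl1 read -0.14 in males and -0.95 in females. The members' median of -0.15 was -0.10 under median centring instead of loess, -0.18 with loess within blocks of array rows, and -0.16 to -0.12 with an array left out. All medians were below 0. The 27 features past the test became 0 under median centring (lowest adjusted p 0.156), with Agilent's processed signals (0.0518), the series value table (0.0749), no filter on dim probes (0.0521), block-median centring by place (0.210) and loess within row blocks (0.0549). They became 10 where probes of a gene were averaged, 42 where each probe was a feature and 41 where the prior followed intensity. The cause was not tested. The mean turned sign for Peg3 under median centring (0.0208) and for H19 with processed signals (0.0251), the series value table (0.0251) and block-median centring (0.0340). Leaving out an array leaves no residual degrees of freedom, so only values were given. The test was itself paired, because each array pairs its Rbpj-cKO and control RNA in its ratio, so no further paired analysis was made.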

Other observations

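Other tissues next to the ureter were followed through their marker genes, and none of the genes named here passed the test. Of 9 kidney epithelium markers 4 were measured, with a median log2 ratio of Rbpj-cKO over control of 0.60. Of these, 3 were higher on both arrays and 1 was lower on both. All 4 had an unadjusted limma p under 0.05, which held for 3.37% of all features. Umod and Nphs1 were not well above background in any channel. Six2, the transcription factor gene of nephron progenitors, read 1.48 and 0.86 on the male and female arrays (limma adjusted p 0.102), and Cdh16, a kidney epithelial cadherin gene, read 0.21 and 1.29. Cited1, also expressed in nephron progenitors, read -0.70 and -0.49, and Pax8 read 0.28 and 0.61. The 5 endothelial markers had a median of -0.05, from Emcn at a mean of -0.25 to Cdh5 at 0.17. Of the adrenal and gonad markers 4 were measured, with a median of -0.06, and Hsd3b1, a steroid dehydrogenase gene, read -1.37 and 1.18. The lowest mean there was that of Cyp11a1 (-0.19) and the highest that of Star (0.23), both genes of steroid synthesis. Of 5 fat cell markers 2 were measured, Fabp4 at 0.42 and -0.32 and Pparg at 0.13 and 0.17. The part of these tissues in the values of the imprinted genes was not tested.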
